A study of Mus musculus with 20 samples.

Results

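The GIMAP GTPases are described here through the 10 array probes that carry the symbol Gimap1, Gimap3, Gimap4, Gimap5, Gimap6, Gimap7, Gimap8 or Gimap9. These are 8 genes of 22295 gene symbols and 10 probes of 39429 on the array. All 10 probes were above background on all 20 arrays and were among the 22264 probes tested. Gimap4 had 3 probes and is given by the brightest, while the other genes had 1 probe each.

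The proteins are GTPases of immunity-associated proteins, a family of membrane-associated guanine nucleotide binding proteins that is found mainly in lymphocytes and is encoded by neighbouring genes. Mature T cells need several of them to survive outside the thymus: rodents without Gimap5 lose peripheral T cells, and Gimap1 is required for the upkeep of mature T and B cells. Gimap3 and Gimap5 are close relatives and have been linked to BCL-2 family proteins, Gimap4 to the pace of T-cell death, Gimap6 to autophagy through the ATG8 proteins, and Gimap7 to the activation of other members through dimers.

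Total RNA of sorted CD4 T cells from mice of the strain B6.Cg-Foxp3<tm1Mal>, in which Foxp3-expressing cells carry GFP, was hybridised to 20 single-colour arrays, and each array had the RNA of 1 pool of 8 to 15 mice of both sexes aged 8 to 14 weeks. All cells were sorted as B220-CD4+. Naive T cells were GFP- with low PD1 and no GL7, regulatory T (Treg) cells were GFP+ with the same profile, T follicular helper (TFH) cells were GFP-PD1hi, and T follicular regulatory (TFR) cells were GFP+PD1hi and were taken whether or not they carried the GL7 epitope. Peripheral lymph nodes (pLN) were taken from mice immunised with keyhole limpet haemocyanin in alum, 12 days (d12) or 25 days (d25) before, and supplied naive, GL7+ TFH, Treg and TFR cells (2 arrays per group on d12, 1 on d25). Peyer's patches (PP), the lymphoid tissue of the small intestine, for which the labels give no immunisation, supplied both GL7+ and GL7- TFH cells besides Treg and TFR cells (2 arrays per group), but no naive cells. The pools are thus mixtures of sorted cells of several mice, and TFR cells were set apart from Treg cells by PD1.

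Between 43.0% and 58.0% of probes were above background per array, and no probe was saturated. The arrays lay on 5 slides of 4: slide 1 held the first and slide 2 the second array of the pLN d12 groups, slide 3 the pLN d25 groups, and slides 4 and 5 the first and second arrays of the PP groups. Foxp3 lay between 13409 and 35129 in the GFP+ groups and at or under 192 in the GFP- groups, and the summed level of 8 T-cell markers was 660995 to 1317140. The 4 arrays of slide 4 stood apart by markers of B cells and epithelium. The summed level of 13 B-cell markers was 26483 to 186165 there, against 7016 to 16346 on slide 5 and 4930 to 23077 on the pLN arrays, and that of 7 epithelial markers was 3525 to 8234 against 743 to 2264 on slide 5. Therefore the F test and the genes called between PP and pLN are also given without slide 4. So is Gimap4 in PP GL7+ TFH against Treg cells, while other comparisons within PP are not. The plasma-cell gene Jchain was 53968 in pLN d12 TFH replicate 1 and 9182 in replicate 2, against 8367 to 54296 on slide 4. That first TFH array also had the highest B-cell marker sum of the pLN arrays. Without it the log2 difference of Gimap4 between TFH and naive cells of pLN d12 was -0.67, against -0.86 with it. The part of these B-cell and plasma-cell markers in the TFH results was not tested.

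All members lie on chromosome 6, with probes placed by the array annotation (mouse assembly mm9) within 103.7 kb. From the low to the high end these are Gimap8 at chr6:48610775-48610834, Gimap9 at chr6:48627839-48627898, Gimap4 at chr6:48641817-48641876, Gimap6 at chr6:48651666-48651725, Gimap7 at chr6:48674271-48674330, Gimap1 at chr6:48693409-48693468, Gimap5 at chr6:48703501-48703560 and Gimap3 at chr6:48714463-48714522. Gimap6 and Gimap3 were probed on the minus strand and the others on the plus strand. The probes of 60 bases report different genes of one family, so their letters matter for telling the genes apart. Of probes of different genes, 42 pairs were compared, and the longest run of bases that a pair shared was 4 to 9. Cross-hybridisation to other parts of the paralogous transcripts was not tested. Shown are the probes of Gimap9 and Gimap7 and the Gimap4 probe nearest to the transcript's start, which begin at base 518, 904 and 500 of their transcripts.
Gimap9 probe: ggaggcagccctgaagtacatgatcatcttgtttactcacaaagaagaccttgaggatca
Gimap7 probe: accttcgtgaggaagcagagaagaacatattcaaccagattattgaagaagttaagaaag
Gimap4 probe: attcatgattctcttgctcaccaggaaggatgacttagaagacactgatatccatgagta

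RefSeq (assembly GRCm38.p6) gave promoter windows of 300 bases, from 250 before to 50 after the transcript start, for all 8 genes. There were 9 windows, since Gimap8 has 2 starts. Each window was searched on both strands for 6 short motifs: GTAAACA (forkhead), GGAAGT (ETS), TGTGGT (RUNX), TTCNNNGAA (the palindrome of STAT sites, to which BCL6 sites are similar), AGGTCA (nuclear receptors) and CAGGTG (E-box). No motif match overlapped another in these windows. TTCNNNGAA was present for Gimap3, Gimap6, Gimap7 and Gimap8, and in 8.3% of all 32851 promoters. GGAAGT was present for Gimap1, Gimap5, Gimap6 and Gimap9 (23.8% of all promoters), TGTGGT for Gimap1, Gimap4 and Gimap7 (16.8%), GTAAACA for Gimap3 (3.65%), AGGTCA for Gimap4 (16.3%) and CAGGTG for Gimap9 (20.2%). The 4 windows with TTCNNNGAA are shown as examples. Capitals mark the motif matches. The motifs were chosen with values of these genes known, and a match of letters shows neither binding nor regulation.
Gimap3 promoter, chr6:48770802-48771101 (-): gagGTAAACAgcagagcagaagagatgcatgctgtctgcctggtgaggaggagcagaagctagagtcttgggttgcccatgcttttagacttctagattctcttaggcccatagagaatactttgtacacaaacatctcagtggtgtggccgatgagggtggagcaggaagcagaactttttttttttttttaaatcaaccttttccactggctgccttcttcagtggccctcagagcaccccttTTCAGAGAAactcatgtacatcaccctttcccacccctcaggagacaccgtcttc
Gimap6 promoter, chr6:48708195-48708494 (-): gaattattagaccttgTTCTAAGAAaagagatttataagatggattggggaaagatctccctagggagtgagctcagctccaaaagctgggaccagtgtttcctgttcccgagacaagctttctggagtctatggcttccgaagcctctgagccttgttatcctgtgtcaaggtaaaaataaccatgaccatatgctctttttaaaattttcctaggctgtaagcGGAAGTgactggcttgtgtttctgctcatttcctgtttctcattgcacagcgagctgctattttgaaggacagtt
Gimap7 promoter, chr6:48718371-48718670 (+): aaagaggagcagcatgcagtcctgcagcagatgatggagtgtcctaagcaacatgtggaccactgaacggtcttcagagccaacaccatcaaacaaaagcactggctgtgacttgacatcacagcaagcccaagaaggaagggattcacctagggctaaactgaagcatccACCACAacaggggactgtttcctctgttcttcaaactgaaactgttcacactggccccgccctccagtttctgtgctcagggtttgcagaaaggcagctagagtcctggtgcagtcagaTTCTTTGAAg
Gimap8 promoter, chr6:48647111-48647410 (+): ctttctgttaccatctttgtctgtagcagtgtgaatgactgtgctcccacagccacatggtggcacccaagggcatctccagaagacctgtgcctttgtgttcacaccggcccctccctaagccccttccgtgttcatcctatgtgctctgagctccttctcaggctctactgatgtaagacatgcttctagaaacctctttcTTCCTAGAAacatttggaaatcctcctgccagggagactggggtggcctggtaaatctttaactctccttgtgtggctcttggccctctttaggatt
TTCNNNGAA began at base -5 from the transcript start in Gimap3, -234 in Gimap6, +40 in Gimap7 and -47 in the second Gimap8 window.

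Across the 12 groups, limma's F test called 3 of the 8 genes, Gimap3 (F 40.9, adjusted p = 3.18e-05), Gimap6 (F 11.5, adjusted p = 0.00210) and Gimap4 (F 11.1, adjusted p = 0.00239), while 17.3% of all tested probes were called. Adjusted p was 0.0251 for Gimap8, 0.0366 for Gimap9, 0.0779 for Gimap7, 0.149 for Gimap5 and 0.188 for Gimap1. Without slide 4 none of the 8 was called. That fit left fewer arrays to estimate the spread, and its share of all probes called was not computed. By group, the mean log2 intensity over the 8 genes was lowest in pLN d12 TFR cells (13.45 and 13.82) and highest in PP Treg cells (14.91 and 15.27). The TFH arrays of pLN overlapped those of TFR cells, with 13.62 and 13.85 on d12 and 13.73 on d25. Within each of the 5 slides the Treg cells had the highest of the 4 means. Between Treg and naive cells of pLN d12, however, the largest log2 difference was 1.18, for Gimap7, and the median over the 8 genes was 0.09. As RNA was taken from whole sorted fractions, fewer cells of a type and less RNA per cell cannot be told apart.

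**Figure D1:**
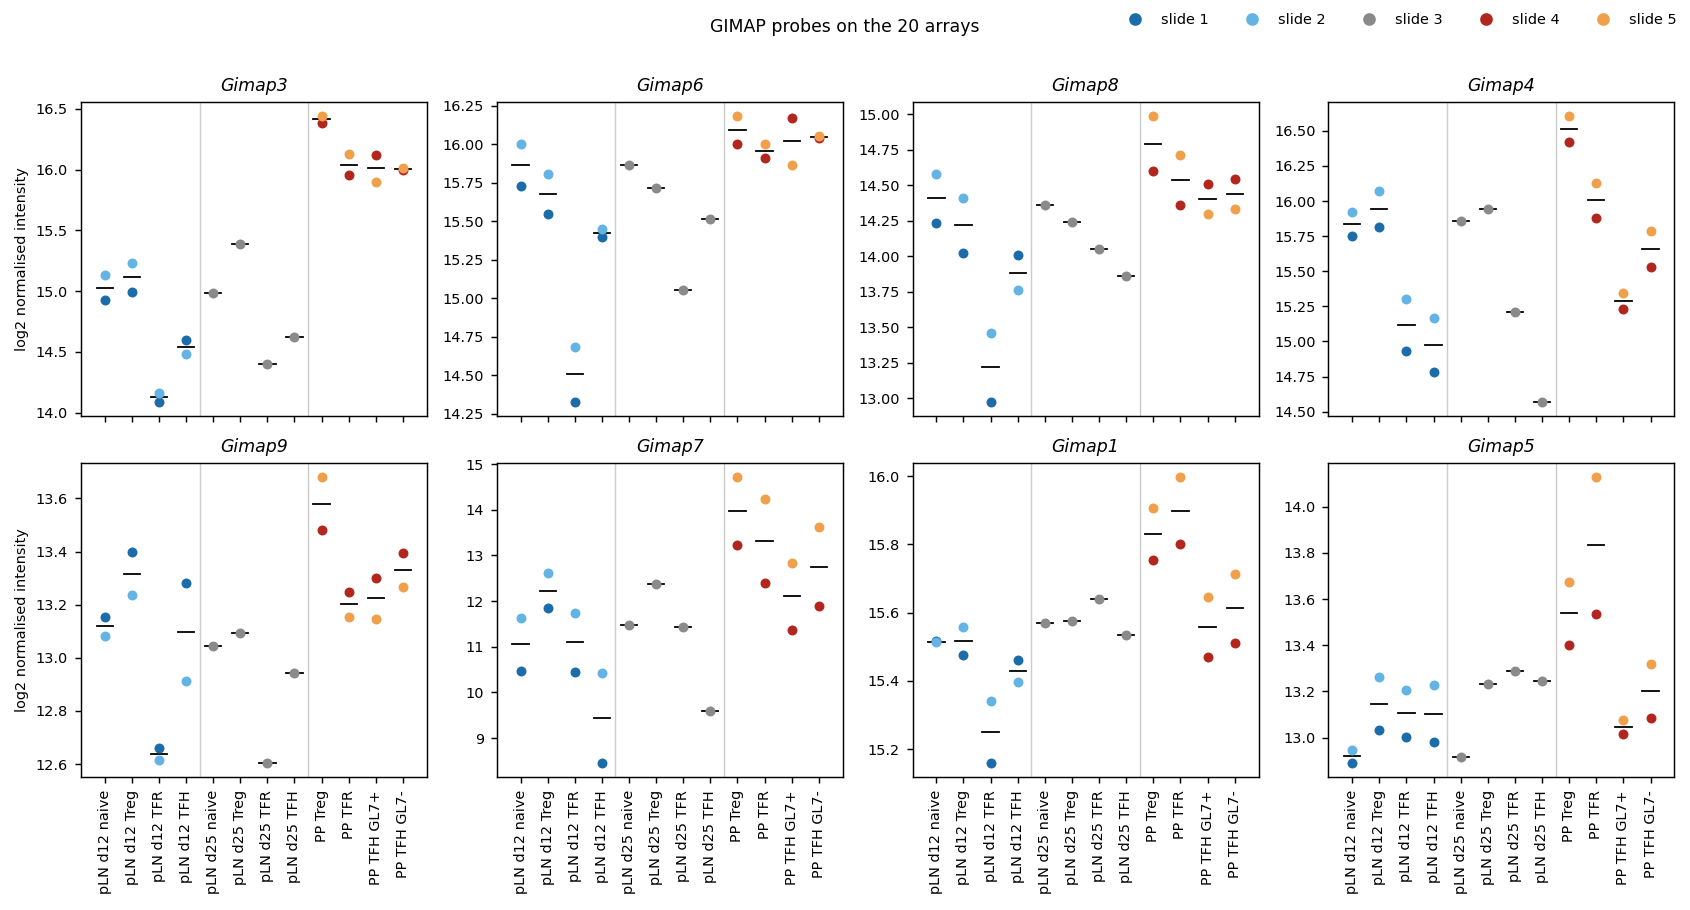
Log2 normalised intensity (y axis) of each GIMAP gene on each of the 20 arrays, by group (x axis), with points coloured by slide and a bar at the mean of each group. Gimap3 is higher on all 8 PP arrays than on all 12 pLN arrays, pLN d12 TFR cells are low for Gimap3, Gimap6 and Gimap8, and the Gimap7 arrays of 1 group lie far apart.

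The first question was how the genes differ between the tissues, and the gene that stood out was Gimap3, which was higher in PP than in pLN in every cell type sorted from both. In Treg cells its normalised intensity was 85582 and 88838 in PP and 32650 and 38440 in pLN d12, in TFR cells 63654 and 71424 against 17443 and 18367, and in GL7+ TFH cells 71341 and 61026 against 24787 and 22937. PP GL7- TFH cells had 65517 and 66256, and pLN d12 naive cells 31109 and 35880. On d25 the level was 32486 in naive, 25172 in TFH, 42974 in Treg and 21671 in TFR cells. The lowest PP array was thus above the highest pLN array. Within pLN the order was Treg and naive, then TFH, then TFR cells, with Treg and naive arrays overlapping; within PP Treg cells were highest and the other groups overlapped.

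Gimap3 was 3.77-fold higher in PP than in pLN d12 TFR cells (log2 difference 1.91, SE 0.16, adjusted p = 0.000116), 2.77-fold higher in GL7+ TFH cells (1.47, adjusted p = 0.00123) and 2.46-fold higher in Treg cells (1.30, adjusted p = 0.00221). It was the only member called in TFH and Treg cells, where 2.36% and 1.82% of all tested probes were called higher and 4.54% and 2.24% were called in either direction. All 8 genes were above 0 in Treg cells (median log2 difference 0.49, all probes -0.05) and 7 of 8 in TFH cells (median 0.42, all probes 0.03). Gimap5 was the exception in TFH cells with -0.06. Each slide holds 1 tissue, so slide entered as a random block, and Gimap3 was then called in TFR (adjusted p = 0.00175), TFH (adjusted p = 0.0124) and Treg cells (adjusted p = 0.0329). Without slide 4 its differences were 2.0 in TFR (adjusted p = 0.00780), 1.36 in TFH (adjusted p = 0.0491) and 1.33 in Treg cells (adjusted p = 0.0461). With the arrays of the compared groups alone, the TFH and Treg differences were not called (adjusted p = 0.156 and 0.284). The labels give immunisation for pLN alone, and its part cannot be told apart from that of the tissue.

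By the median over the 8 genes, TFR cells had a larger tissue difference (1.10) than Treg (0.49) and TFH cells (0.42), although the tests of the difference itself, given further on, called none of the 8 genes without a term for slide. In the comparison of PP with pLN d12, 3 of 8 genes were called higher (Gimap3, Gimap6 and Gimap8) beside 5.74% of all tested probes called higher and 11.1% called in either direction, and all 8 differences were above 0 (median over all probes 0.00). By adjusted p alone, a threshold chosen after seeing the data, 7 of 8 genes passed as higher, against 8.06% of all probes. Gimap6 was 61786 and 65601 in PP and 20574 and 26359 in pLN d12, a 2.73-fold difference (log2 1.45, SE 0.19, adjusted p = 0.00107). Gimap8, the family's large member with several GTPase domains, was 21065 and 26852 against 8057 and 11280, a 2.49-fold difference (1.32, SE 0.25, adjusted p = 0.00614). The arrays of both tissues did not overlap for either gene. The further genes that passed by adjusted p alone were Gimap4 at 0.89 (adjusted p = 0.0164), Gimap5 at 0.73 (adjusted p = 0.0453), Gimap1 at 0.65 (adjusted p = 0.0177) and Gimap9 at 0.56 (adjusted p = 0.0441). Gimap7 had the largest difference, 2.22, but an SE of 0.96 (adjusted p = 0.153).

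With slide as a random block, Gimap6 was called in this comparison (adjusted p = 0.00673) and Gimap8 was not (adjusted p = 0.0503). Gimap8 was called under 7 of 11 alternatives, and its call was also lost without pLN d12 TFR replicate 1 (adjusted p = 0.0591), with 75th percentile scaling alone (0.99) and with the compared groups alone. The B-cell marker sum was 186165 and 13668 in PP TFR and 8543 and 7491 in pLN d12 TFR cells. Without slide 4, 4 genes were called, Gimap3, Gimap5, Gimap6 and Gimap8, and the differences of Gimap6 and Gimap8 were 1.49 each, as large as with it. With the arrays of the compared groups alone, only Gimap3 was called. Without PP TFR replicate 1, Gimap4 was at 1.01 and Gimap5 at 1.02. The share of all probes called was not computed for these fits. Markers of the TFR state moved with the tissue: the summed level of 9 TFH markers was 574692 and 516753 in PP TFR and 180480 and 180253 in pLN d12 TFR cells, and that of 7 markers of recirculating naive cells was 39129 and 31276 against 137591 and 113693. Their part in the GIMAP difference was not tested.

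**Figure D2:**
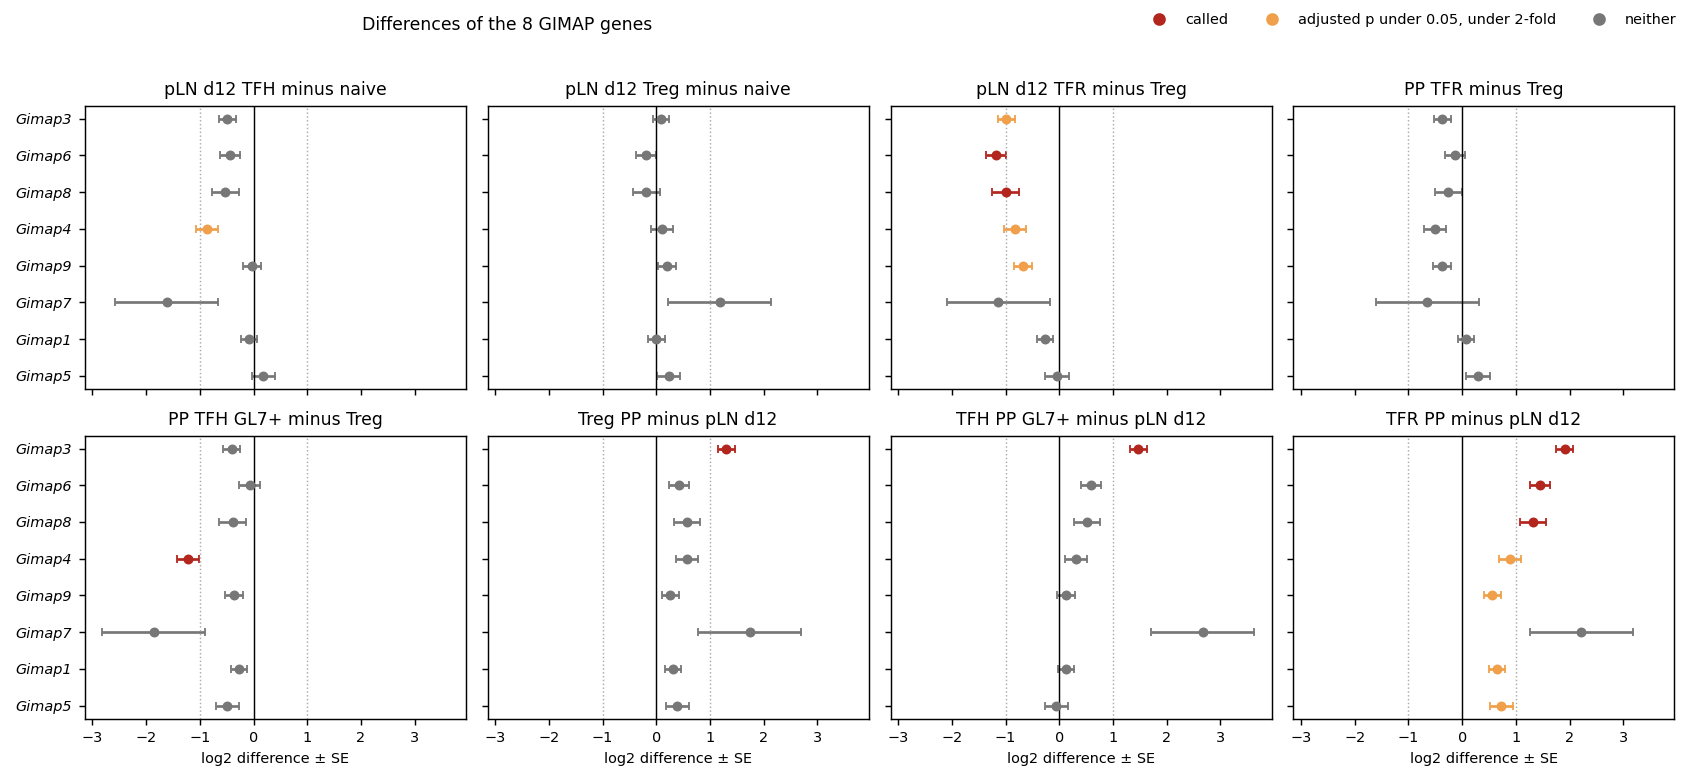
Log2 difference with its standard error (x axis) of each GIMAP gene (y axis) in 8 comparisons between groups; red points were called, orange points had an adjusted p under 0.05 below the 2-fold limit, grey points neither, and dotted lines mark a log2 difference of 1 in either direction. In the TFR comparison of PP with pLN every gene lies to the right of 0, in that of TFR with Treg cells of pLN every gene lies to the left, and Gimap7 has the widest error in each panel.

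The next question was how the follicular cells differ from their non-follicular counterparts, first TFR from Treg cells. In pLN d12, 2 of 8 genes were called lower in TFR cells, beside 2.56% of all tested probes called lower and 8.35% called in either direction, and all 8 differences were below 0 (median -0.90, all probes -0.08). Gimap6 was 20574 and 26359 in TFR and 47920 and 57245 in Treg cells, 2.25-fold lower (log2 -1.17, SE 0.19, adjusted p = 0.00303). Gimap8 was 8057 and 11280 in TFR and 16669 and 21837 in Treg cells, 2.0-fold lower (-1.0, SE 0.25, adjusted p = 0.0264). For both genes the TFR arrays of d12 lay below every other pLN array of d12 and d25. The TFR array of d25 had 34046 for Gimap6, below all naive, TFH and Treg arrays of pLN, and 16969 for Gimap8, within the range of those arrays.

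Gimap3 was 1.98-fold lower in pLN d12 TFR than in Treg cells (adjusted p = 0.00302), just short of the 2-fold limit. Gimap4 fell by 0.82 on the log2 scale (adjusted p = 0.0281) and Gimap9 by 0.68 (adjusted p = 0.0254), so that 5 of 8 genes passed as lower by adjusted p alone, against 4.34% of all probes. Gimap9 was 6478 and 6275 in TFR and 10807 and 9644 in Treg cells, and its TFR arrays, that of d25 with 6224 included, were the lowest of all 20. Gimap1 and Gimap5 differed by -0.27 and -0.04. The single TFR and Treg arrays of d25 on slide 3 had 6 of 8 differences below 0, with Gimap3 at -0.99 and a median of -0.57.

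Leaving out single libraries changed the number of genes called between pLN d12 TFR and Treg cells. It was 0 without TFR replicate 1 (Gimap6 at -0.99, Gimap8 at -0.76), 4 without TFR replicate 2 and 1 without Treg replicate 2, and 0 with the arrays of the compared groups alone (adjusted p = 0.0826 for Gimap6). Without slide 4, which holds none of these arrays but adds to the estimate of the spread, it was 1, with Gimap8 at an adjusted p of 0.0674. The share of all probes called was not computed for these fits. TFR replicate 2 also had a local background of 268, against 24 to 78 on the other arrays. The B-cell marker sum was 8543 and 7491 in TFR and 9600 and 18014 in Treg cells.

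In PP the same comparison called none of the 8 genes (limma, lowest adjusted p = 0.165, 3 at an unadjusted p under 0.05), while 9.25% of all probes were called. There 6 of 8 differences were below 0 with a median of -0.31, and those of Gimap6 and Gimap8 were -0.14 and -0.26. With slide as a fixed block none of the 8 was called in PP either, beside 13.9% of all probes. By adjusted p alone, Gimap4 (-0.51, adjusted p = 0.00243), Gimap9 (-0.38, adjusted p = 0.0329) and Gimap3 (-0.37, adjusted p = 0.0392) passed as lower in that fit. The test of the difference between tissues called none of the 8 (0.548% of all probes, 2 of 8 at an unadjusted p under 0.05). It gave 1.03 for Gimap6 (SE 0.26, adjusted p = 0.162), and all 8 values were above 0. With slide as a fixed block, where TFR and Treg arrays are set against each other within a slide, Gimap6 passed (adjusted p = 0.0159, 4.58% of all probes called).

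TFR and TFH cells, both follicular, were compared next. In pLN d12 none of the 8 genes was called (limma, 4 at an unadjusted p under 0.05, 5.01% of all probes called). Without a term for slide, Gimap6 alone passed by adjusted p (log2 -0.92, adjusted p = 0.0159), and 2.71% of all probes passed as lower by that rule. Gimap6 was 20574 and 26359 in TFR against 43270 and 44775 in TFH cells. Its difference was -1.10 without TFR replicate 2, and over all alternatives it lay between -1.10 and -0.71. In PP none was called either (limma, 3 at an unadjusted p under 0.05, 3.44% of all probes called). Gimap5 had the lowest adjusted p in that fit, at 11888 and 17879 in TFR against 8293 and 8634 in GL7+ TFH cells (0.78, SE 0.22, adjusted p = 0.0898). The difference of Gimap5 was 1.08 without PP TFR replicate 1 and 0.49 without PP TFR replicate 2. With slide as a fixed block, Gimap7 was called higher in TFR than TFH cells of both tissues. That fit called 8.24% of all probes in pLN d12 and 6.18% in PP. By adjusted p alone, Gimap6 (adjusted p = 0.00164), Gimap9 (adjusted p = 0.0244) and Gimap3 (adjusted p = 0.0399) then passed as lower in pLN d12. In PP, Gimap4 (0.72, adjusted p = 0.00120), Gimap5 (0.78, adjusted p = 0.00424) and Gimap1 (0.34, adjusted p = 0.0301) passed as higher. The test of the difference between tissues called 0 of 8 (4 at an unadjusted p under 0.05, 0.611% of all probes called), with 0.86 for Gimap6 (adjusted p = 0.338).

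TFH cells were compared with naive cells in pLN d12 to see whether the family falls with entry into the follicle in GFP- cells. None of the 8 genes was called (limma, 3 at an unadjusted p under 0.05), against 14.7% of all probes, although 7 of 8 differences were below 0 (median -0.46, all probes -0.09). Gimap4 was 28186 and 36825 in TFH and 55169 and 62176 in naive cells, 1.82-fold lower (log2 -0.86, SE 0.21, adjusted p = 0.0139), and was the only gene to pass as lower by adjusted p alone, as 8.73% of all probes did. Its difference was -1.06 without TFH replicate 2 and -0.67 without TFH replicate 1. Gimap3 was at -0.49 (adjusted p = 0.0544), Gimap8 at -0.52, Gimap6 at -0.44, Gimap1 at -0.09 and Gimap9 at -0.02. Gimap7 had the largest difference, -1.61, with an SE of 0.96 (adjusted p = 0.313). Gimap5 was the gene above 0, at 0.18. With slide as a fixed block, which sets TFH against naive arrays of the same slide, Gimap7 was called lower (adjusted p = 0.000825), and Gimap4 (adjusted p = 9.64e-05), Gimap3 (adjusted p = 0.00978) and Gimap6 (adjusted p = 0.0186) passed as lower by adjusted p alone. The change from naive to TFH cells was also tested against the change between Treg and TFR cells, with none of the 8 called (limma, 3 at an unadjusted p under 0.05, 2.18% of all probes called). With slide as a fixed block none was called either, beside 6.19% of all probes. Gimap6 (0.73, adjusted p = 0.0401) and Gimap9 (0.66, adjusted p = 0.0431) passed by adjusted p alone in that fit, with the smaller fall in TFH cells. Treg and naive cells of pLN d12 showed no called gene (limma, 0 at an unadjusted p under 0.05, 3.76% of all probes called) and a median of 0.09.

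By its brightest probe, Gimap4 was lowest in GL7+ TFH cells and highest in Treg cells on each of the 5 slides. In PP it was 38399 and 41642 in GL7+ TFH cells, 47348 and 56441 in GL7- TFH cells, 60416 and 71586 in TFR cells and 87638 and 99671 in Treg cells. These groups did not overlap by the brightest probe. In pLN d12 Treg cells had 57542 and 68759 and TFR cells 31204 and 40464, so that TFR arrays overlapped those of TFH cells. On d25 the values were 24323 in TFH, 37828 in TFR, 59354 in naive and 63105 in Treg cells. The other Gimap4 probes were also lowest in GL7+ TFH cells on each slide. On slide 3, however, their naive arrays were above those of Treg cells (11898 against 10870, and 15646 against 15376). In PP their GL7- TFH and TFR arrays overlapped. The values were 13959 and 15620 against 15585 and 15535, and 26852 and 20301 against 30537 and 22723.

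Between PP GL7+ TFH and Treg cells Gimap4 was 2.34-fold lower in TFH cells (log2 -1.22, SE 0.21, adjusted p = 0.00295). It was the only one of 8 genes called, where 4.62% of all probes were called lower and 9.87% in either direction, and all 8 differences were below 0 (median -0.39, all probes 0.03). The other Gimap4 probes gave -1.19 (adjusted p = 0.0226) and -1.48 (adjusted p = 0.00118). Without slide 4 the difference of Gimap4 was -1.26 (adjusted p = 0.0869), and with the arrays of the compared groups alone its adjusted p was 0.0749. On slide 5, where the B-cell marker sum was 16159 in GL7+ TFH and 16346 in Treg cells, the intensity was 41642 against 99671. With slide as a fixed block, Gimap4 and Gimap7 were called lower, beside 14.7% of all probes called in either direction. By adjusted p alone, Gimap5 (-0.49, adjusted p = 0.0137), Gimap3 (-0.40, adjusted p = 0.0280), Gimap1 (-0.27, adjusted p = 0.0303) and Gimap9 (-0.36, adjusted p = 0.0397) also passed as lower in that fit. None of the 8 genes was called between GL7+ and GL7- TFH cells of PP (limma, 0 at an unadjusted p under 0.05, 0 by the methods' t-test with or without adjustment, 0.00898% of all probes called). Of the 8 differences 7 were below 0 (median -0.08), and 2 arrays per group cannot show that the cells are alike. Gimap4 and Gimap7 had the largest differences there, -0.37 and -0.64.

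Gimap7 was lowest in TFH cells and highest in Treg cells on each of the 5 slides, but its level differed strongly between slides. In pLN d12 it was 350 and 1373 in TFH, 1411 and 3190 in naive, 1394 and 3429 in TFR and 3705 and 6235 in Treg cells, in the order of slide 1 and slide 2. In PP it was 2662 and 7322 in GL7+ TFH, 3789 and 12541 in GL7- TFH, 5363 and 19364 in TFR and 9593 and 26774 in Treg cells, in the order of slide 4 and slide 5. On d25 it was 767 in TFH, 2769 in TFR, 2842 in naive and 5298 in Treg cells. The first array of every group of 2 was below the second, and naive and TFR arrays of pLN overlapped. The labels give an RNA input of 50 ng for slides 1 and 4 and of 40 ng for the others, so input and slide cannot be told apart.

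The 2 arrays of a group differed in Gimap7 by 0.75 (pLN d12 Treg) to 1.97 log2 units (pLN d12 TFH), and no Gimap7 difference was called without a term for slide. With slide as a fixed block, the SE was 0.24 and Gimap7 was 3.06-fold lower in pLN d12 TFH than naive cells (log2 -1.61, adjusted p = 0.000825, 19.1% of all probes called by that fit) and 2.27-fold higher in Treg than naive cells (1.18, adjusted p = 0.0148, 6.11% called). It fell by 1.14 from Treg to TFR cells of pLN d12 (adjusted p = 0.00694, 12.2% called) and was higher by 1.66 in TFR than TFH cells (adjusted p = 0.00220, 8.24% called). In PP it was 3.63-fold lower in GL7+ TFH than Treg cells (-1.86, adjusted p = 0.000583, 14.7% called), and higher by 1.21 in TFR than GL7+ TFH cells (adjusted p = 0.0137, 6.18% called). The PP difference of TFR from Treg cells, -0.65, did not pass (adjusted p = 0.0631). Tissue differences of Gimap7 lie between slides. They were not called in TFH and TFR cells without a slide term (adjusted p = 0.145 and 0.153) or with slide as a random block (adjusted p = 0.0658 and 0.0561).

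**Figure D3:**
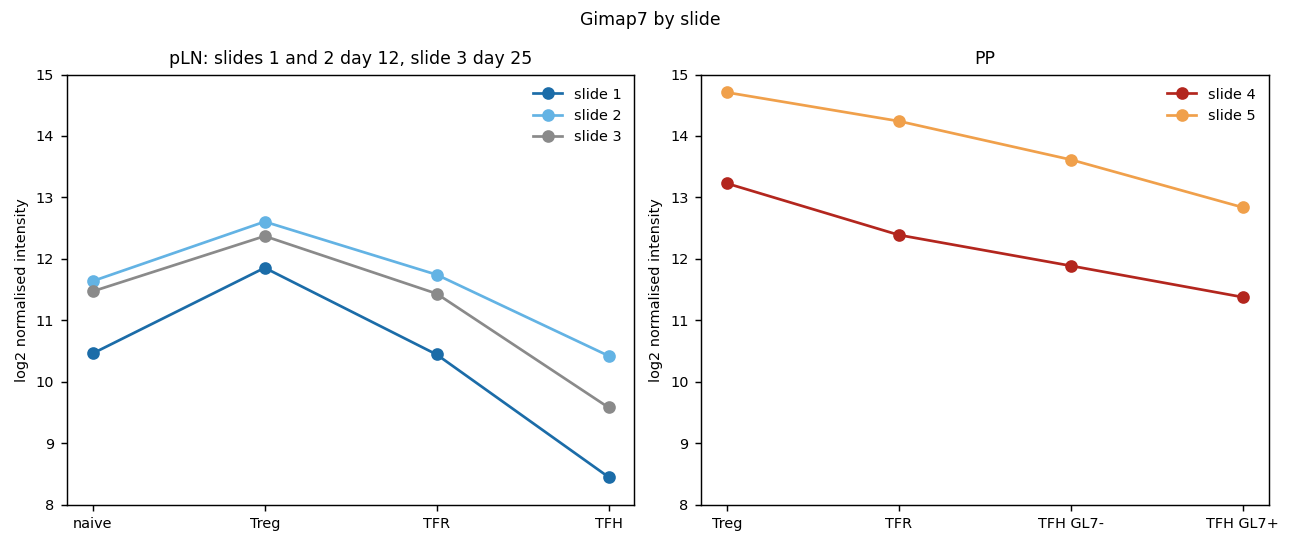
Log2 normalised intensity of Gimap7 (y axis) by cell type (x axis), with 1 line per slide, for pLN on the left and PP on the right. The lines have a similar course, with TFH cells lowest and Treg cells highest on each of the 5 slides, while slide 1 lies below slides 2 and 3 and slide 4 below slide 5.

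Gimap1 and Gimap5, the members known for the upkeep of peripheral T cells, differed by 0.27 or less in size between TFR and Treg cells and between TFH and naive cells of pLN d12. Gimap1 was 36591 to 51019 on the 12 pLN arrays, lowest in TFR cells of d12, and 45374 to 65355 on the PP arrays, where Treg (55321 and 61421) and TFR cells (57129 and 65355) were above both TFH groups. Gimap5 was 7591 to 10016 on the pLN arrays, with naive cells lowest, and 8293 to 17879 on the PP arrays, with TFR and Treg cells highest. Gimap9 was 6224 to 10807 in pLN and 9075 to 13116 in PP. With all arrays in the fit, none of these 3 genes was called in any comparison. Between PP and pLN d12 TFR cells all 3 passed as higher by adjusted p alone (Gimap5 0.73, Gimap1 0.65, Gimap9 0.56). Gimap5 was at 1.02 there without slide 4. Between PP TFR and GL7+ TFH cells it was at 1.08 without PP TFR replicate 1 and at 0.49 without PP TFR replicate 2. The call of Gimap5 without slide 4 is given above.

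Between d12 and d25 none of the 8 genes was called in naive cells (0.00898% of all probes), TFH cells (0.0314%), Treg cells (0%) or TFR cells (0.00898%) with limma, and 0, 0, 0 and 2 of 8 had an unadjusted p under 0.05. Those were Gimap8, at 0.83 higher on d25 in TFR cells, and Gimap6, at 0.55, each with an adjusted p of 1. Day and slide cannot be told apart, and each single d25 array is taken to have the spread of the groups with 2 arrays.

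The course of the members over the 12 group means was most alike for Gimap6 and Gimap8 (Pearson's r 0.93), Gimap6 and Gimap9 (0.86), Gimap3 with Gimap8 and with Gimap6 (each 0.85), Gimap3 and Gimap9 (0.84) and Gimap4 and Gimap7 (0.84). Gimap5 was least like Gimap6 (0.18) and Gimap9 (0.26). These values describe 12 groups that share slides and normalisation. Gimap6 and Gimap8 are not next to each other in the cluster. Over the same group means, the genes most like the mean of the family included Clint1 (r 0.97), Mllt3, Fcrl5 and Nfya (each 0.95), and the most opposite were Rhot2 and Mrpl27 (each -0.98), out of 18577 probes of which 0.501% had an r above 0.9.

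**Figure D4:**
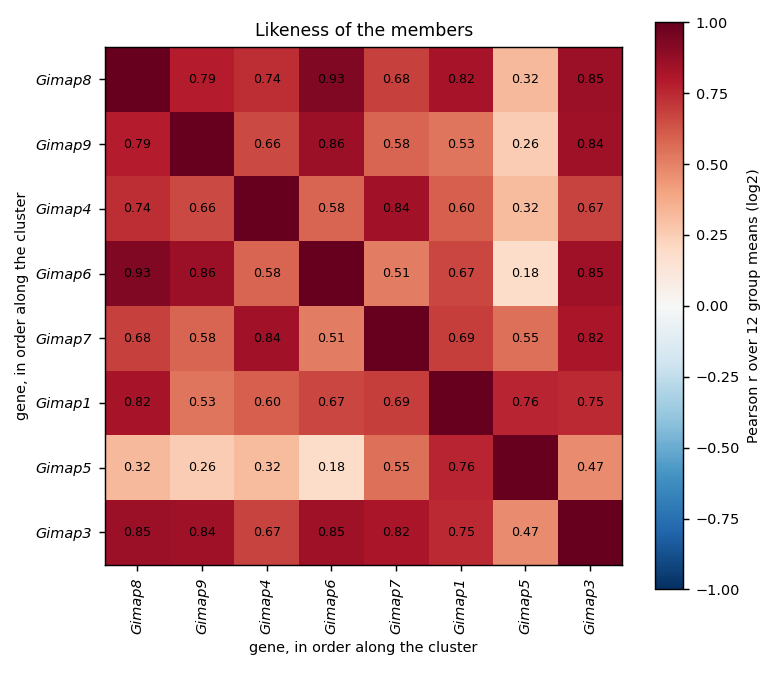
Pearson's r over the 12 group means (colour scale) between each pair of GIMAP genes, both axes in the order of the genes along chromosome 6. Gimap6 and Gimap8 are most alike at 0.93, and the row of Gimap5 is palest, down to 0.18 with Gimap6.

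The probes of other transcripts inside the cluster behaved differently from one another. A130009E19Rik at chr6:48683278-48683337 (mm9), between Gimap7 and Gimap1, was 272 and 239 in naive and 155 and 251 in Treg cells of pLN d12. In TFH and TFR cells of pLN d12 it was below background, which makes TFH cells at least 6.04-fold lower than naive cells (adjusted p = 0.0103). In PP it was above background on slide 4 in Treg cells alone, at 101, and on slide 5 in all 4 groups at 72.2 to 299. ENSMUST00000155906 at chr6:48688472-48688531 (mm9) was 5300 and 7984 in TFR cells of pLN d12 against 9837 and 11679 in Treg cells (log2 -0.72, adjusted p = 0.0900) and was called higher in PP than in pLN TFR cells (1.11, adjusted p = 0.0128). Of 29 other genes probed within 500 kb, these included, 19 were tested, and 4 were called higher and 2 lower in TFH than in naive cells, against 14.7% of all probes called.

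Gene lists tied to T-cell survival and to GIMAP partners were set beside the family for TFH and naive cells of pLN d12. Of 18 genes of T-cell quiescence and recirculation, 10 were called lower and 0 higher, beside 0 of 8 GIMAP genes and 14.7% of all probes called in either direction. Il7r, the receptor for the survival cytokine IL-7, was 20.5-fold lower, Ccr7, which keeps T cells in the T zone, 13-fold, and S1pr1, the receptor for lymph node exit, 12.3-fold. Of 14 tested BCL-2 family genes 3 rose and 1 fell, with Bcl2 at -1.80 (adjusted p = 0.0310) and the death inducer Pmaip1 at least 9.65-fold higher. Of 14 autophagy genes only Gabarapl1, an ATG8 protein, changed, by 3.41 on the log2 scale. Of 18 interferon-inducible GTPases, another group of immune GTPases, 1 rose (Mx1, by 2.65, above background on 1 of 2 naive arrays) and 2 fell.

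Between pLN d12 TFR and Treg cells, where Gimap6 and Gimap8 were called lower, 0 quiescence genes rose and 5 of 18 fell, 3 of 14 BCL-2 family genes rose and 1 fell, 1 of 14 autophagy genes rose and 5 of 18 interferon-inducible GTPases fell, against 8.35% of all probes called in either direction. In PP, where no GIMAP gene was called in that comparison, 8 of 18 quiescence genes and 6 of 18 interferon-inducible GTPases fell. Of all probes, 3.02% were called lower there and 9.25% in either direction. Between PP and pLN d12 TFR cells, where 3 GIMAP genes rose, 3 of 18 quiescence genes rose and 4 fell, and 0 of 14 autophagy genes changed, against 11.1% of all probes called.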

How the data were processed

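The deposited scanner files hold, per the file headers, a background-subtracted intensity for each printed feature (Agilent Feature Extraction 10.7.3.1 per the submitters' notes, annotation mm9). The authors also deposited 1 intensity per probe and array after quantile normalisation, with the 75th percentile set to 1500 and a floor of 20. Values were rebuilt in the same way from the scanner files: geometric mean over 4 features after removal of marked outliers, of features outside 1.42 times the interquartile range and of those with a pixel coefficient of variation above 0.5, then quantile normalisation, the same scaling and floor, and log2. The median distance from the authors' values was 0.0347 to 0.0362 log2 units per array. Normalisation over all arrays gives every array the same distribution, so values are relative to all RNA of an array.

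A probe was above background on an array with at least 3 of 4 features well above it. Tested were 22264 probes above background on both arrays of at least 1 group. Groups come from the labels, and replicates are pools from separate experiments per the series' design text, numbered in deposition order. p-values measure the spread between these samples. limma 3.58.1 in R 4.3.3 fitted 1 mean per group to all 20 arrays (8 residual degrees of freedom). Two-sided p-values were adjusted over all tested probes (Benjamini-Hochberg). Called means an adjusted p under 0.05 with a log2 difference of 1 or more in size, or, for the F test, p under 0.001 with adjusted p under 0.005. "By adjusted p alone" drops the 2-fold limit. "At least" folds raise arrays below background to the lowest detected intensity. Each gene was named by its brightest tested probe, and up to 3 genes per list by size of change between TFH and naive cells. Members, lists and motifs were chosen with earlier results of these data known. The fitting was tested on simulated data. Alternatives are given at the end. Scanner time marks were not used.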

Additional observations from a re-analysis of the deposited data

How the results depend on the processing

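No called difference of a GIMAP gene changed sign under any alternative run; of 1664 recomputed differences, 88 changed sign, none of them called in either fit. Gimap3 between PP and pLN d12 TFR cells was called under 11 of 11 alternatives (log2 1.49 to 2.0), and in Treg and TFH cells under 10 of 11 each. Gimap6 between pLN d12 TFR and Treg cells was called under 10 of 12 (-1.35 to -0.99), Gimap8 under 7 of 12, and Gimap4 between PP GL7+ TFH and Treg cells under 10 of 12.

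The number of genes called among the 12 groups was 3, and 5 of 10 probes when every probe was counted, 6 by the methods' analysis of variance before and after adjustment, and 0 without slide 4. Between pLN d12 TFH and naive cells it was 0, and 1 with 75th percentile scaling alone, by adjusted p alone (a rule chosen after seeing the data) and with slide as a fixed or random block, with a range of 0 to 1 when arrays were left out in turn. Slide as a fixed or random block also gave 1 in place of 0 for pLN d12 Treg against naive, pLN d12 TFR against TFH, PP TFR against GL7+ TFH and the tissue difference of TFR against Treg, and 2 in place of 1 for PP GL7+ TFH against Treg. Between pLN d12 TFR and Treg cells the number was 2, 3 with slide as a fixed or random block (Gimap7 added), with 75th percentile scaling alone and with the authors' deposited values (Gimap3 added), 5 by adjusted p alone, 0 with the compared groups alone, 1 without slide 4, and 0 to 4 with arrays left out in turn. Between pLN d12 TFR and TFH cells it was 1 by adjusted p alone and 0 to 1 with arrays left out, and the latter range held for PP TFR against GL7+ TFH cells. PP GL7+ TFH against Treg cells gave 3 with every probe counted, and 0 with the compared groups alone and without slide 4. PP against pLN d12 gave 0 in place of 1 for Treg and for TFH cells with the compared groups alone, and for TFR cells 1 with these groups, 7 by adjusted p alone and 2 to 5 with arrays left out. The causes were not tested, except that the compared groups alone, like fits with arrays left out, leave fewer arrays to estimate the spread. For these fits the share of all probes called was not computed.

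Replicate numbers only name arrays; arrays were paired by slide instead, through the fixed block. The main limit is the number of arrays: 2 per group, 1 on d25. The values are relative intensities, so levels of different genes cannot be compared. Each slide holds 1 RNA input and 1 tissue and day, so these cannot be told apart from the slide. RNA input is not tied to tissue between PP and pLN d12, as both inputs occur in every group compared. The d25 arrays all had the lower input.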
